A study of Mus musculus with 22 samples.

Results

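A set of 9 mouse genes was examined whose RNA levels in Tol mice and in their WT littermates did not overlap in any of 3 organs. In each organ, every library of one genotype lay on the same side of every library of the other. These 9 genes were Zfp276, Tns3, Atg4b, Plat, Mid1, Acer2, Fzd4, Txlna and Vmac, out of 34585 entries listed in each count table. Vmac was higher in Tol in thymus, cerebrum and cerebellum, and the other 8 genes were lower. The genes were chosen by these same measured levels, so the differences between Tol and WT given here for them are a description and carry no test. Levels are given in CPM, the usual scale of counts relative to the library total, with totals scaled within each organ by the trimmed mean of M values (TMM).

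Libraries of thymus and of cerebrum were made from 4 mice of each genotype, and libraries of cerebellum from 2 Tol and 4 WT mice. All mice were C57BL/6. Tol mice were heterozygous for a transgene under the CAG promoter, placed 3′ of Col1a1 in embryonic stem cells, which encodes scrambled fragments of fluorescent proteins, firefly luciferase and Cre recombinase, and their WT littermates lacked it. The comparison addresses whether expression of this large scrambled protein changed the levels of other genes. RNA was polyadenylated RNA from frozen tissue. The labels give neither age nor sex, and the study's methods describe its animals as a whole as young adults of some weeks of age, without an age per library. No source used here states whether a library number marks the same mouse in the 3 organs, so p-values measure the spread between these libraries only.

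The genes fall into different functions. Plat encodes tissue plasminogen activator, a secreted protease that converts plasminogen to plasmin and is known for its part in fibrinolysis and in synaptic remodelling in the brain. Fzd4 encodes a frizzled receptor for Wnt proteins and for norrin, known for its part in retinal and cerebellar vessels, and Tns3 encodes tensin 3, an adaptor between integrins and actin at focal adhesions. Mid1 encodes a ubiquitin ligase of the tripartite motif family that binds microtubules and, through Igbp1, the catalytic subunit of protein phosphatase 2A. Acer2 encodes the alkaline ceramidase of the Golgi, which cleaves ceramide to sphingosine. Atg4b encodes a cysteine protease that processes the LC3 and GABARAP proteins of autophagy. Txlna encodes a taxilin, which binds syntaxins of vesicle traffic, Zfp276 encodes a zinc finger protein, and Vmac encodes a coiled-coil protein associated with vimentin-type intermediate filaments.

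The genes lie on 7 chromosomes (GENCODE vM21 annotation of GRCm38). Acer2 (chr4:86874396-86934822) and Txlna (chr4:129626078-129641065) share chromosome 4, and Plat (chr8:22757727-22782844) and Zfp276 (chr8:123254195-123269745) share chromosome 8, in each case far apart. The others were Atg4b (chr1:93751500-93790610), Fzd4 (chr7:89404355-89413134), Tns3 (chr11:8431652-8664535), Vmac (chr17:56713936-56718022) and Mid1 (chrX:169685199-170005736). Tns3, Txlna and Vmac are on the minus strand and the other 6 on the plus strand.

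RefSeq promoters, from 250 bases before to 50 bases after an annotated start (GRCm38.p6), were at hand for 7 of the 9 genes, with 11 starts in all. Zfp276 and Plat had none in the table. Those of 4 genes are shown, each 5′ to 3′ on the strand of its gene and at the RefSeq start nearest to the annotated gene start: Mid1 and Acer2 as the genes with the largest differences, Tns3 as a gene that stayed separated under every scaling tried, and Vmac as the gene that was higher. They are Mid1 (chrX:169684949-169685248, plus strand), Acer2 (chr4:86874164-86874463, plus strand), Tns3 (chr11:8664486-8664785, minus strand) and Vmac (chr17:56717650-56717949, minus strand). Capitals mark matches to the TATA box (TATAAA), the CCAAT box (CCAAT), the GC box (GGGCGG), the E-box (CACGTG), the cAMP response element (TGACGTCA), the palindrome CTCGCGAG of many TATA-less promoters and the nuclear respiratory factor motif (GCATGCGC), searched on both strands, and neighbouring or overlapping matches run together.
Mid1: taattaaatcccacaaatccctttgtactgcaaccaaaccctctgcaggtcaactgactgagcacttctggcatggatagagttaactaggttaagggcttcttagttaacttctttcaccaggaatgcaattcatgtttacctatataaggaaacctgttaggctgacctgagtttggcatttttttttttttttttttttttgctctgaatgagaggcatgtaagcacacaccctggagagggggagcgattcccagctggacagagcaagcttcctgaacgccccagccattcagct
Acer2: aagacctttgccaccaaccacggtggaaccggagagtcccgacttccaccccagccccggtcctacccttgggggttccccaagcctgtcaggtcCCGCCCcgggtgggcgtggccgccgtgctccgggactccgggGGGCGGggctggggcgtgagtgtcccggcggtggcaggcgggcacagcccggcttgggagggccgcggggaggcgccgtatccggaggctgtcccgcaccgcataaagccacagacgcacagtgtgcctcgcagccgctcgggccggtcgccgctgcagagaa
Tns3: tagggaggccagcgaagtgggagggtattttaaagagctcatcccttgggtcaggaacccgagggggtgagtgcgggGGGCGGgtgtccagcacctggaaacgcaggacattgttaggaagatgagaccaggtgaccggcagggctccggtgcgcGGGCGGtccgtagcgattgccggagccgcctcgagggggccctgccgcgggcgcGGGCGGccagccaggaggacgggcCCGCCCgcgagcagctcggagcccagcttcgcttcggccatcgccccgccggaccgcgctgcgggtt
Vmac: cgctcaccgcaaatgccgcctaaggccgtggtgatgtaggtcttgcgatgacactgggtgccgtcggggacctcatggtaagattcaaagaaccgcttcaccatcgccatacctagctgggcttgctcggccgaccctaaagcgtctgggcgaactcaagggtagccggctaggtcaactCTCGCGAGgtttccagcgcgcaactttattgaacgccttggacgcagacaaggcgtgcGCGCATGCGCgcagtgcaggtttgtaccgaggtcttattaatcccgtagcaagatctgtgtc

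The motif GGGCGG, the GC box, was present in 7 of the 11 promoters, against 35.7% of all 32851 promoters of this length. By gene, 6 of the 7 held the motif at 1 or more starts, and 5 held it at the start nearest to the gene start. Mid1 held it at none of its 3 starts, and the Mid1 promoter shown held no match to any of the 7 motifs. CCAAT was present in 4 of the 11 promoters (37.4% of all), and TATAAA in 0 (13.6% of all). The Vmac promoter shown was the only one of the 11 with CTCGCGAG (0.919% of all) or GCATGCGC (2.71% of all). The TGACGTCA match (1.79% of all) was at the second Vmac start, and the CACGTG match (7.15% of all) at the second Txlna start. No motif was thus shared by all 6 of the lower genes that had a promoter in the table. The GC content was 43.7% in the Mid1 promoter shown, 57.7% in that of Vmac, 70.7% in that of Tns3 and 73% in that of Acer2, with a median of 52.7% over all promoters. A match is a run of letters and was not tested for binding.

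Library totals ranged from 14543698 to 34776973 estimated counts with a median of 21577753.5. The Tol transcript had between 448 and 4628 counts in the Tol libraries and at most 2 in any WT library. Thymus markers summed to between 7387 and 10530 CPM in the thymi, and cerebrum markers to between 4369 and 5716 CPM in the cerebra. Thymus markers were at 21.1 CPM in cerebrum Tol 4 and 38.1 CPM in cerebrum WT 3, and between 3.27 and 6.34 CPM in the other cerebra. The library labelled cerebellum Tol 2 was low in 5 of 6 markers of cerebellar neurons: Gabra6, Pcp2, Cbln1, Cbln3, Fat2 and Barhl1 summed to 124.7 CPM, against 5005 CPM in cerebellum Tol 1 and between 1979 and 4653 CPM in the 4 WT cerebella. Gabra6, the granule cell subunit of the GABA-A receptor, was at 12.7 CPM in it and between 320.4 and 771.5 CPM in the other 5 cerebella. Barhl1, a transcription factor of granule cells, went the other way, at 24.6 CPM in it, 13.7 CPM in Tol 1 and between 10.5 and 20.4 CPM in WT. The sum in the cerebra was at most 37.9 CPM. Cerebrum markers summed to 561.4 CPM in it, within the range of the WT cerebella (326.7 to 691.2). For the genes of the set, the fitted difference between Tol and WT in cerebellum is therefore given with and without this library. Other comparisons of Tol and WT in cerebellum, such as those of pathway genes, neighbouring genes and markers, include it unless stated. Within the WT cerebella, choroid plexus markers summed to between 19.3 and 4497 CPM and oligodendrocyte markers to between 4971 and 16950 CPM. In tissue, fewer cells of a type and less RNA per cell cannot be told apart.

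Of 14086 genes kept by the expression filter in all 3 organs, 9 were lower in Tol without overlap in each organ (0.0639%) and 1 was higher (0.0071%). The 9 lower genes were the 8 described here and Per1, a circadian clock gene, which is not among the genes chosen. In thymus, Per1 ranged from 33.3 to 36.3 CPM in Tol against 42.5 to 50.3 CPM in WT, from 36.3 to 69.6 against 84.2 to 167 CPM in cerebrum, and from 47.3 to 48.4 against 77.7 to 95.4 CPM in cerebellum. Considered organ by organ, non-overlap was common: 12.5% of the 14086 genes did not overlap in thymus, 6.56% in cerebrum and 11.2% in cerebellum. A further 9 genes did not overlap in any organ but differed in direction between organs. Nothing is read from the count of the genes chosen, which the choice itself fixed.

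The margin of the separation was small for most of the genes. The gap is the distance between the nearest Tol and WT library, as a percentage, and the smallest of the 3 organs is given. Acer2 had the widest, 15.1% in thymus, followed by Tns3 with 3.25% in cerebrum and Plat with 2.33% in cerebellum. It was 1.36% for Mid1 in thymus, 0.865% for Fzd4 in thymus, 0.787% for Atg4b in cerebrum and 0.483% for Zfp276 in cerebrum. The narrowest were Vmac in thymus at 0.284% (lowest Tol library 23.10 CPM, highest WT library 23.04 CPM) and Txlna in cerebrum at 0.0605% (highest Tol library 42.62 CPM, lowest WT library 42.65 CPM). Just outside, Stx5a overlapped in cerebellum by 0.193%, with a highest Tol library of 51.5 CPM and a lowest WT library of 51.4 CPM. Which genes qualified depended on the scaling. On CPM of the library totals without TMM, 5 of the 9 still separated in all organs, and Atg4b, Mid1, Fzd4 and Vmac did not. With counts thinned to the total of the smallest library, 4 did so, and with the dependence on GC content and transcript length removed from each library, also 4. Tns3, Plat and Acer2 separated in all 3 organs under each of these scalings.

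**Figure D1:**
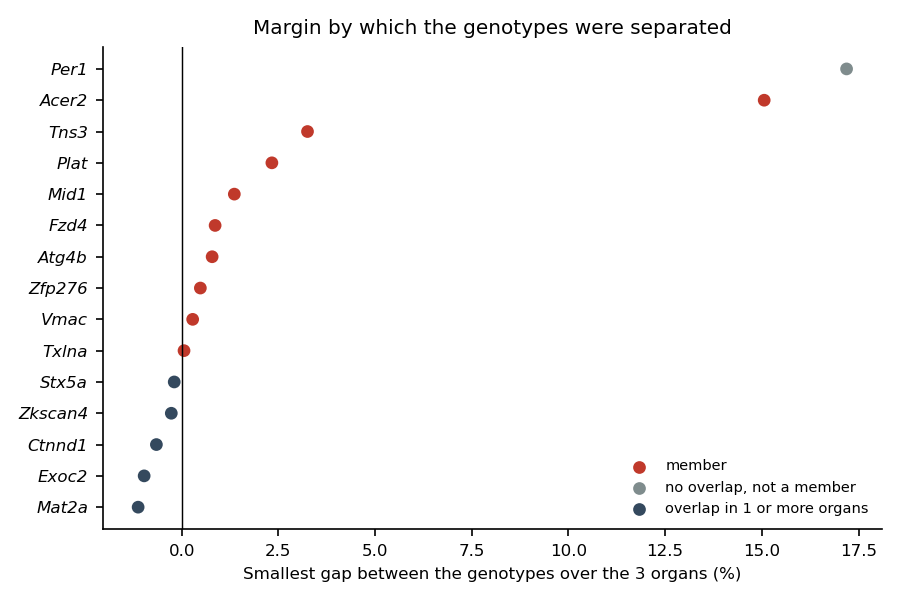
Smallest gap between Tol and WT libraries over the 3 organs, in percent, for the genes without overlap in 1 direction and the 5 genes nearest to the rule on the outside. A point right of 0 is separated in every organ; Acer2 stands at 15.1% among the 9 genes, and the other 8 lie between 0.0605% and 3.25%.

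Plat was the secreted protease of the set and was lower in Tol in each organ. In thymus, libraries 1 to 4 of Tol held 7.32, 7.64, 7.15 and 7.20 CPM and those of WT 10.4, 13.2, 9.76 and 9.56 CPM. Cerebral levels were 26.1, 24.5, 29.0 and 27.1 CPM in Tol and 36.7, 34.1, 32.1 and 41.7 CPM in WT. Both brain regions and the thymus thus had all Tol libraries below all WT libraries, with the Tol thymi close together. The cerebella of Tol held 49.8 and 40.6 CPM, and those of WT 56.01, 54.5, 57.0 and 50.9 CPM. The fitted log2 fold change, Tol over WT, was -0.55 (SE 0.12) in thymus, -0.44 (SE 0.09) in cerebrum and -0.27 (SE 0.12) in cerebellum. Without cerebellum Tol 2 the last value was -0.14, and with cerebellum Tol 2 as the only Tol library it was -0.43.

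Fzd4, the frizzled receptor, was lower in Tol throughout. Its thymus level was low, with 4.78, 5.33, 5.94 and 5.66 CPM in Tol libraries 1 to 4 and 7.08, 6.53, 5.99 and 7.26 CPM in WT. In cerebrum the Tol libraries held 13.97, 14.8, 14.96 and 13.2 CPM and the WT libraries 17.0, 19.8, 20.6 and 15.9 CPM. The cerebella of Tol, at 18.1 and 18.8 CPM, lay below those of WT at 23.2, 29.5, 23.4 and 39.0 CPM, where library 4 stood above the others. Fitted log2 fold changes were -0.31 (SE 0.12) in thymus, -0.36 (SE 0.10) in cerebrum and -0.64 (SE 0.24) in cerebellum, and the cerebellar value was -0.68 without cerebellum Tol 2. In thymus the fold change was -0.18 once the trend with GC content and length had been removed.

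Tns3 differed by a similar proportion in the 3 organs. Thymus libraries of Tol held 132, 110, 125 and 116 CPM, and those of WT 154, 153, 142 and 146 CPM. In cerebrum, 66.5, 67.3, 69.9 and 74.2 CPM in Tol compared with 78.2, 82.0, 76.6 and 86.4 CPM in WT. The 2 Tol cerebella held 118 and 106 CPM and the WT cerebella 130, 154, 134 and 136 CPM. Every organ thus had a gap of at least 3.25% between the genotypes. The fitted log2 fold changes were -0.30 (SE 0.07), -0.22 (SE 0.06) and -0.31 (SE 0.12) in thymus, cerebrum and cerebellum, and the last was -0.23 without cerebellum Tol 2. Removal of the trend with GC content and length left -0.16 in thymus.

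Acer2, the Golgi ceramidase, had the widest gap and the lowest counts of the set, between 41 and 144 estimated counts per thymus library. Tol thymi held 3.44, 2.25, 4.35 and 3.82 CPM and WT thymi 6.41, 6.58, 5.75 and 5.003 CPM. Cerebral levels were 4.76, 5.11, 5.66 and 6.82 CPM in Tol and 12.1, 10.7, 13.2 and 8.62 CPM in WT. In cerebellum, 6.10 and 8.69 CPM in Tol stood against 15.7, 16.9, 11.99 and 11.2 CPM in WT. The fitted log2 fold changes were -0.77 (SE 0.19) in thymus, -1.004 (SE 0.16) in cerebrum and -0.92 (SE 0.25) in cerebellum, and -1.20 in cerebellum without Tol 2. Tol and WT were separated in each of the 3 organs by at least 15.1%.

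Atg4b showed the smallest differences of the set, and its libraries lay close together. In thymus the Tol libraries ranged from 50.2 to 53.1 CPM and the WT libraries from 54.5 to 55.6 CPM. The ranges were 46.5 to 55.3 against 55.7 to 58.4 CPM in cerebrum, and 64.5 to 66.7 against 67.5 to 71.3 CPM in cerebellum. Fitted log2 fold changes were -0.09 (SE 0.05), -0.13 (SE 0.06) and -0.08 (SE 0.08) in thymus, cerebrum and cerebellum, the last of these no larger than its standard error, and -0.06 in cerebellum without Tol 2. By size of the fold change, Atg4b ranked 10834 of 16248 genes tested in thymus and 12058 of 16662 in cerebellum. On CPM of the library totals it was separated in 1 organ.

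Zfp276, the zinc finger protein, and Txlna, the taxilin, were both lower in Tol. Zfp276 held 40.7, 35.7, 43.8 and 37.1 CPM in Tol thymus libraries 1 to 4 and 49.0, 51.6, 47.7 and 52.1 CPM in WT. Its cerebral levels were 14.01, 14.2, 16.6 and 13.2 CPM in Tol against 16.7, 22.3, 17.8 and 17.9 CPM in WT. Tol library 3 nearly reached WT library 1 there. Its cerebellar levels were 22.7 and 16.7 CPM in Tol and between 25.2 and 33.0 CPM in WT. The fitted log2 fold changes of Zfp276 were -0.35 (SE 0.07), -0.36 (SE 0.11) and -0.58 (SE 0.17), and the cerebellar value was -0.38 without Tol 2. Txlna ranged from 128 to 146 CPM in Tol against 158 to 174 CPM in WT thymus. It ranged from 38.9 to 42.62 against 42.65 to 46.5 CPM in cerebrum, and held 55.0 and 43.2 against 56.7 to 66.4 CPM in cerebellum. Its fitted log2 fold changes were -0.28 (SE 0.06), -0.14 (SE 0.06) and -0.35 (SE 0.14), with -0.19 in cerebellum without Tol 2. For both genes cerebellum Tol 2 was the lower of the Tol cerebella.

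Vmac was the only gene of the set that was higher in Tol. Tol thymi held 23.1, 27.7, 25.7 and 25.9 CPM and WT thymi 19.3, 23.0, 21.8 and 21.3 CPM. In cerebrum, 8.25, 8.83, 7.68 and 7.99 CPM in Tol compared with 7.42, 7.22, 7.41 and 6.69 CPM in WT. Cerebellar levels were 11.1 and 10.7 CPM in Tol and 9.21, 10.1, 8.96 and 10.5 CPM in WT. The fitted log2 fold changes were 0.26 (SE 0.08), 0.19 (SE 0.09) and 0.17 (SE 0.13), and 0.19 in cerebellum without Tol 2. The separation of Vmac was lost when thymus Tol 2, thymus WT 1, 3 or 4, or cerebellum WT 1 or 2 was left out and the scaling recomputed.

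**Figure D2:**
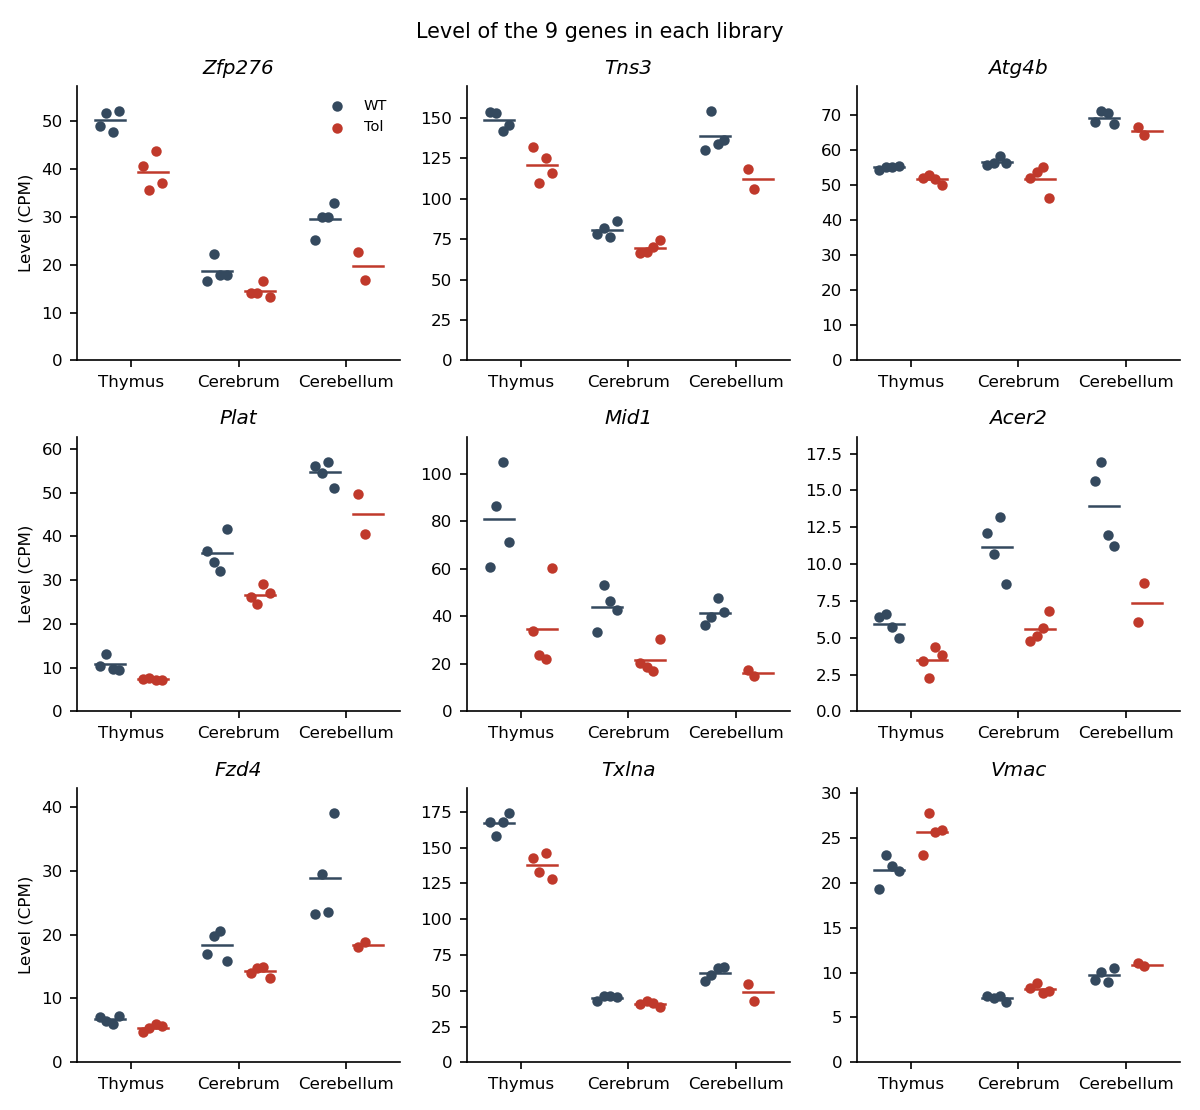
Level of each of the 9 genes in CPM (linear axis from 0) in every library of thymus, cerebrum and cerebellum, with WT in dark blue and Tol in red and a line at the mean of each group. All Tol points lie below all WT points of the same organ for 8 genes and above them for Vmac, with a nearest distance of 0.0605% for Txlna in cerebrum.

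**Figure D3:**
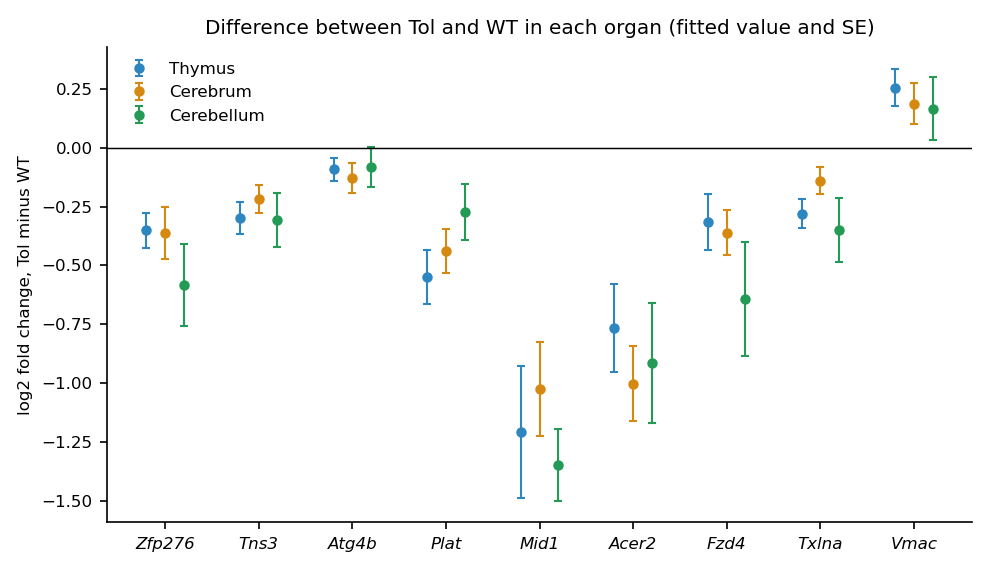
Fitted log2 fold change, Tol over WT (point), and its standard error (bar) for the 9 genes in 3 organs. Mid1 (-1.02 to -1.35) and Acer2 (-0.77 to -1.004) lie farthest from 0, and Atg4b (-0.08 to -0.13) lies nearest.

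Mid1 differed most between the genotypes. Tol thymi held 33.7, 23.6, 21.9 and 60.1 CPM in libraries 1 to 4, and WT thymi 60.9, 86.2, 105 and 71.1 CPM. Cerebral levels were 20.2, 18.9, 16.9 and 30.6 CPM in Tol and 33.4, 53.1, 46.2 and 42.7 CPM in WT, and cerebellar levels 17.5 and 14.9 CPM in Tol and 36.2, 39.7, 47.7 and 41.9 CPM in WT. The spread within a genotype was wide, with the highest Tol thymus 2.74 times the lowest and the highest WT thymus 1.72 times the lowest. The fitted log2 fold changes were -1.21 (SE 0.28) in thymus, -1.02 (SE 0.20) in cerebrum and -1.35 (SE 0.15) in cerebellum, and -1.24 in cerebellum without Tol 2. In thymus the separation of Mid1 was lost when Tol 1, Tol 2, WT 3 or WT 4 was left out and the scaling recomputed. The libraries nearest to each other across the genotypes, Tol 4 and WT 1, were kept in these settings.

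The libraries of Mid1 kept similar places across organs. Tol library 4 was the highest Tol library in both thymus and cerebrum, Tol library 3 the lowest in both, and WT library 1 the lowest WT library in all 3 organs. As a description, the deviations of Mid1 from its group means correlated between same-numbered libraries with r = 0.90 for thymus and cerebrum (8 libraries of each), 0.85 for thymus and cerebellum (6) and 0.50 for cerebrum and cerebellum (6). For the other genes these values ranged from -0.75 (Vmac, cerebrum and cerebellum) to 0.80 (Atg4b, thymus and cerebrum).

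Mid1 lies near the end of chromosome X, where in C57BL/6 mice the gene spans the boundary of the pseudoautosomal region, the stretch that X and Y share. The next tested gene, Gm21887 (chrX:170009659-170019281), starts 3923 bases after it. In thymus, Gm21887 ranged from 16.1 to 47.6 CPM among Tol libraries against 28.6 to 84.7 CPM among WT libraries, from 5.10 to 10.2 against 7.14 to 24.1 CPM in cerebrum, and from 7.402 to 9.61 against 18.3 to 40.5 CPM in cerebellum. Its log2 fold changes were -0.90, -1.05 and -1.64, none of which passed the test (edgeR adjusted p = 0.169, 0.433 and 0.957). On the other side, Hccs (chrX:169250193-169320372) had log2 fold changes of 0.07, 0.14 and 0.01 (edgeR adjusted p = 0.602, 0.717 and 0.991). The gene whose levels followed those of Mid1 most closely was Gm47283, annotated at the end of Y (chrY:90784738-90816464), with r = 0.92 over the 22 libraries after centring each organ on its mean. Gm47283 had log2 fold changes of -0.85, -1.26 and -1.46 (edgeR adjusted p = 0.121, 0.19 and 0.957), and its Tol and WT ranges did not overlap in cerebrum (12.6 to 21.3 against 24.3 to 50.8 CPM) and cerebellum (21.1 to 21.3 against 40.7 to 79.1 CPM) but did in thymus (49.0 to 112.7 against 80.3 to 196.2 CPM). In Tol thymus library 4, the highest Tol library for Mid1, Gm47283 was at 112.7 CPM and Gm21887 at 47.6 CPM, each the highest Tol thymus. The Y-linked genes Ddx3y and Eif2s3y had at most 10 and 7 counts in any library, while Kdm5d, also Y-linked, had between 67 and 285 counts and Uty between 11 and 44.

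Reads of these genes can be shared between copies. Of the distinct windows of 65 bases in the transcripts of Mid1, the read length of the study, 14.1% also occurred on the same strand in other genes, all of them in Mid1-ps1 and part of them also in Gm21742, both annotated on Y. These pseudogenes had at most 20 and 25 counts in any library, where Mid1 had between 375 and 2047. Gm21887 and Gm47283 shared 467 windows with each other, 57.8% of those of Gm21887, so their separate levels are uncertain. No other gene of the 9 shared a window with another gene on the same strand.

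**Figure D4:**
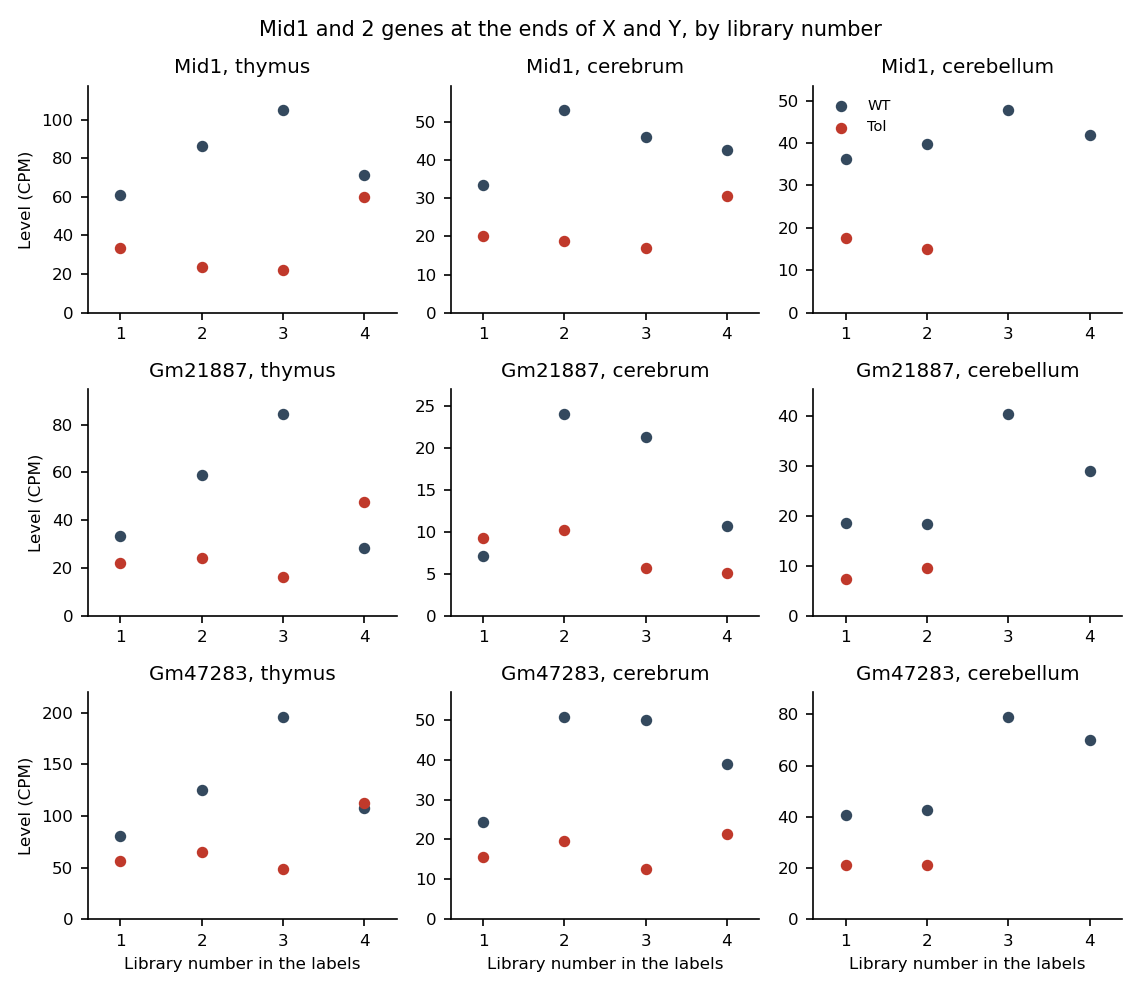
Level in CPM (linear axes from 0) of Mid1, Gm21887 and Gm47283 against the library number of the labels, in each organ, with WT in dark blue and Tol in red. WT library 1 is the lowest WT library for Mid1 in all 3 organs, and Tol library 4 the highest Tol library for Mid1 in thymus and cerebrum.

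Related genes and pathway partners, which the selection did not use, were tested between Tol and WT in each organ with edgeR. Over all genes, 0.0985% passed an adjusted p of 0.05 in thymus (16 of 16248), 0% in cerebrum and 0% in cerebellum; at an unadjusted p under 0.05 there were 3965, 1506 and 527 genes, and DESeq2 called 1266, 184 and 10. Of the genes in 8 pathway lists, 127, 127 and 129 were tested in the respective organs, and 0 passed in any organ with edgeR. In these lists 73, 77 and 69 genes were lower in Tol, against 7895 of 16248, 8012 of 15596 and 8036 of 16662 over all genes. At an unadjusted p under 0.05 the lists held 31, 17 and 5 genes, or 24.4%, 13.4% and 3.88% of those tested, against 24.4%, 9.66% and 3.16% of all genes. DESeq2 called 11, 1 and 0 of them. With thymus Tol 1 left out, edgeR called 22 pathway genes in thymus, but also 2978 of all 16370 genes tested, in place of 16.

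Of the frizzled receptors and norrin pathway, 25 genes were tested in thymus and 27 in each brain region. In thymus 20 were lower and 5 higher, with a median log2 fold change of -0.11 against 0.01 over all genes, and 8 had an unadjusted p under 0.05, all lower. Over all 16248 genes, 7895 were lower, and 1800 were lower with an unadjusted p under 0.05. The 8 mesenchymal and mural markers were also all lower in Tol thymus (median -0.42), and their part in this was not tested. The lowest p was that of Dvl1, the dishevelled adaptor, at 48.5 CPM in Tol and 60.2 CPM in WT (log2 fold change -0.31, edgeR adjusted p = 0.071). Fzd3 (-0.52, edgeR adjusted p = 0.0862) and Fzd10 (-0.46, edgeR adjusted p = 0.109) also had low values there. DESeq2 called Tcf7, Fzd3, Gsk3b, Dvl1 and Lrp6 lower in Tol thymus. In cerebrum the lowest p was that of Fzd6, at 11.3 CPM in Tol and 8.81 CPM in WT (0.35, edgeR adjusted p = 0.295), and Fzd10 was at 2.54 against 1.25 CPM (1.03, edgeR adjusted p = 0.338). In cerebellum it was Axin2, a target of Wnt signalling, at 34.8 against 23.6 CPM (0.56, edgeR adjusted p = 0.957). Axin2 was at 27.2 against 23.5 CPM in cerebrum (0.21, edgeR adjusted p = 0.358) and at 30.4 against 32.2 CPM in thymus (-0.08, edgeR adjusted p = 0.627). Fzd4 was lower in Tol in all 3 organs, by its selection. Fzd1 was also lower in each, with log2 fold changes of -0.18 in thymus, -0.13 in cerebrum and -0.07 in cerebellum (edgeR adjusted p = 0.594, 0.74 and 0.98). No other frizzled receptor was lower in all 3 organs. In cerebellum, the log2 fold changes of the frizzled receptors other than Fzd4 ranged from -0.07 for Fzd1 to 1.36 for Fzd2 (edgeR adjusted p = 0.957 for Fzd2). These cerebellar values include cerebellum Tol 2. For Fzd2 the 2 Tol cerebella held 2.73 and 9.33 CPM against 1.72 to 2.94 CPM in WT, so 1 of them lay within the WT range.

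For the autophagy machinery, 24 genes were tested in each organ, of which 7, 17 and 13 were lower in thymus, cerebrum and cerebellum. Atg4a, a paralog of Atg4b, was at 32.7 CPM in Tol and 22.9 CPM in WT thymus (log2 fold change 0.51, SE 0.10, edgeR adjusted p = 0.0607), opposite in direction to Atg4b. It passed with DESeq2 (adjusted p = 0.000799), without the filter on low counts (adjusted p = 0.0424) and with at least 10 counts required in every library (adjusted p = 0.0494, both edgeR). In cerebrum the log2 fold change of Atg4a was 0.22 and in cerebellum -0.06 (edgeR adjusted p = 0.66 and 0.972). Atg4c and Atg4d had log2 fold changes between -0.37 and 0.13 in the 3 organs. The lowest p was that of Gabarapl2, a substrate of these proteases, in cerebrum (-0.17, edgeR adjusted p = 0.412) and of Atg101 in cerebellum (0.33, edgeR adjusted p = 0.957).

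Of the ceramide and sphingosine genes, 19 were tested in thymus and 20 in each brain region, and 8, 12 and 10 of them were lower in thymus, cerebrum and cerebellum. Acer3, the ceramidase related to Acer2, was at 32.8 CPM in Tol and 28.3 CPM in WT cerebrum (log2 fold change 0.21, edgeR adjusted p = 0.372), 25.02 against 24.3 CPM in thymus and 40.9 against 40.1 CPM in cerebellum. Acer1 was near or under 1 CPM in the brain. Sgms1, which makes sphingomyelin from ceramide, was lower in Tol in each organ, at 11.9 against 13.8 CPM in thymus, 35.1 against 43.4 CPM in cerebrum and 44.9 against 56.2 CPM in cerebellum (edgeR adjusted p = 0.187, 0.278 and 0.957). Its ranges did not overlap in cerebrum (32.5 to 38.1 against 39.5 to 48.7 CPM) and cerebellum (43.2 to 46.5 against 52.8 to 62.3 CPM) and overlapped in thymus (11.1 to 12.9 against 12.2 to 15.04 CPM). In thymus the lowest p was that of the ceramide synthase Cers5 (0.19, edgeR adjusted p = 0.13).

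In the list of tensins and focal adhesions, 16 of 18 genes were lower in thymus (median log2 fold change -0.15), 13 of 17 in cerebrum (median -0.04) and 12 of 18 in cerebellum (median -0.04). Over all genes, 7895 of 16248 were lower in thymus, 8012 of 15596 in cerebrum and 8036 of 16662 in cerebellum. Tns2 was at 11.02 CPM in Tol and 14.4 CPM in WT thymus (-0.38, edgeR adjusted p = 0.134) and at 14.6 against 18.8 CPM in cerebrum (-0.37, edgeR adjusted p = 0.281), but at 27.0 against 27.3 CPM in cerebellum. Tns1 had log2 fold changes of -0.13, -0.04 and -0.05, and Tns4 was at 5.87 against 7.57 CPM in thymus and at 0.298 against 0.636 CPM in cerebellum. The lowest p in thymus was that of Dlc1, whose product is bound by tensins (-0.32, edgeR adjusted p = 0.0854), and in cerebellum that of Parvb (0.24, edgeR adjusted p = 0.957). DESeq2 called Dlc1, Vcl and Fermt2 lower in thymus. Markers of mesenchymal and mural cells moved with this list in thymus: all 8 were lower in Tol, with a median of -0.42 and sums of 255.8 to 358.4 CPM against 320 to 523.5 CPM in WT, while endothelial sums, carried mainly by Pecam1, were 195.5 to 202.6 against 197.1 to 202.6 CPM (6 of 8 endothelial genes lower, median -0.15). In cerebellum the mesenchymal markers went the other way, with all 8 higher in Tol and a median of 0.55. Their sum was 370.4 CPM in cerebellum Tol 2 and 193.4 CPM in cerebellum Tol 1. The latter lay within the WT range of 133.6 to 196.6 CPM. Tns3 was lower in Tol there too. The part of mesenchymal and mural cells in these results was not tested.

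In the remaining lists, 3 of 9 genes of the Mid1 list and 3 of 10 genes of plasminogen activation had an unadjusted p under 0.05 in thymus, and 1 of 11 in each of the other 2 lists. Mid2, the paralog of Mid1, had log2 fold changes of -0.24, -0.0032 and 0.22 in thymus, cerebrum and cerebellum (edgeR adjusted p = 0.178, 0.995 and 0.957). Of the 9 genes listed with protein phosphatase 2A, 2, 6 and 4 were lower in the 3 organs. The lowest p was that of Ppp2r1b, a scaffold subunit, in cerebrum, at 12.5 CPM in Tol and 17.2 CPM in WT (-0.46, edgeR adjusted p = 0.207), which DESeq2 called (adjusted p = 0.0188), and of Mid1ip1 in thymus (0.36, edgeR adjusted p = 0.111). Among plasminogen activation genes, 5 of 10 were lower in thymus, 4 of 8 in cerebrum and 2 of 9 in cerebellum. Anxa2, a receptor for tissue plasminogen activator, was at 543 CPM in Tol and 454 CPM in WT thymus (0.26, edgeR adjusted p = 0.0862). Lrp1, which clears it, was at 578 CPM in Tol and 449 CPM in WT cerebrum (0.36, edgeR adjusted p = 0.308), and the receptor Plaur was at 0.417 against 0.745 CPM in cerebellum (-0.83, edgeR adjusted p = 0.957). Among taxilins and syntaxins, 7, 6 and 7 of 11 were lower; Txlng had log2 fold changes of -0.15, 0.01 and -0.12 and Txlnb of -0.33, -0.25 and -0.09. Naca, a subunit of the nascent polypeptide-associated complex that taxilins bind, was at 415 CPM in Tol and 319 CPM in WT thymus (0.38, edgeR adjusted p = 0.0775), and Stx4a was lowest in p in cerebrum (-0.18, edgeR adjusted p = 0.54). Among intermediate filament genes, 8, 7 and 8 of 11 were lower. Vim, which encodes vimentin, had log2 fold changes of -0.06, 0.03 and -0.02, and the lowest p were those of Synm in thymus (-0.18, edgeR adjusted p = 0.141), Plec in cerebrum (0.21, edgeR adjusted p = 0.424) and Ina in cerebellum (-0.21, edgeR adjusted p = 0.957).

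Genes that overlap the 9 or lie next to them were examined in the same way. Of 24 such genes 23 were tested, and 0 passed in any organ with edgeR; 10, 4 and 3 had an unadjusted p under 0.05 in thymus, cerebrum and cerebellum (24.4%, 9.66% and 3.16% of all genes did), and DESeq2 called 4, 0 and 1 (1266, 184 and 10 of all genes). Those called were Ndufa11 and Rps6 (higher) and Igfbp3 and Prss23 (lower) in thymus, and Gm21887 (lower) in cerebellum. Zfp276 shares 920 exonic bases with Fanca and 154 with Vps9d1 on the opposite strand. Fanca, of the Fanconi anaemia pathway, was at 29.7 CPM in Tol and 25.3 CPM in WT thymus (log2 fold change 0.24, edgeR adjusted p = 0.282), a direction opposite to that of Zfp276. In cerebrum Fanca was at 1.97 against 1.62 CPM (0.28, edgeR adjusted p = 0.727), and Vps9d1 had log2 fold changes between -0.04 and 0.02 in the 3 organs. Vmac shares 70 exonic bases with Ndufa11, a subunit of respiratory complex I on the opposite strand. Ndufa11 was higher in thymus (57.8 against 45.6 CPM, 0.34, edgeR adjusted p = 0.103), like Vmac, and at 37.2 against 39.8 CPM in cerebrum (-0.09, edgeR adjusted p = 0.782), unlike Vmac. Libraries were stranded; how the counting used strand is not given in the sources used here. Next to Acer2, Rps6 was at 261 against 192 CPM in thymus (0.44, edgeR adjusted p = 0.0937). Dtymk, next to Atg4b, was higher in thymus (0.15, edgeR adjusted p = 0.19) and lower in cerebrum and cerebellum (-0.22 and -0.42, edgeR adjusted p = 0.477 and 0.957). The genes beside Fzd4 were Tmem135, which lies 133 bases away on the opposite strand and had log2 fold changes of 0.01, 0.10 and -0.12, and Prss23 (-0.71 in thymus, edgeR adjusted p = 0.0923).

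Transcript length moved with the difference between genotypes in thymus. Across 16199 thymus genes, which are not independent, the difference between Tol and WT (log2 fold change) and transcript length had a Spearman rank correlation of -0.41, against 0.16 in cerebrum and -0.03 in cerebellum. The longest coding transcripts of the 9 genes had between 2226 bases (Vmac) and 7483 bases (Tns3), and those of 7 of the 8 lower genes, all but Plat at 2525, were longer than the thymus median of 2973. With this trend removed, the log2 fold changes in thymus of Mid1 (-1.16), Acer2 (-0.71), Plat (-0.58), Zfp276 (-0.29) and Vmac (0.21) moved by less than 1 SD of the libraries. Those of Tns3 (-0.16), Atg4b (-0.03), Fzd4 (-0.18) and Txlna (-0.20) moved by more, toward 0. The thymus counts and medians of the pathway lists above are given with this trend left in.

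The levels of the 9 genes in the organs of WT mice were not used in their selection and were tested in 1 fit of the 12 WT libraries with edgeR (17413 genes). All 9 differed between thymus and cerebrum at an adjusted p of 0.05, 5 of them higher in thymus (43.4% of all genes were) and 4 lower (40.9% of all). Txlna was 2.78 times, Vmac 2.24 times and Zfp276 2.02 times higher in thymus than in cerebrum (edgeR adjusted p = 2.372e-10, 9.053e-08 and 8.831e-07), Tns3 1.38 times (edgeR adjusted p = 2.429e-05) and Mid1 1.38 times (edgeR adjusted p = 0.0206). Plat was 4.49 times, Fzd4 3.61 times, Acer2 2.51 times and Atg4b 1.37 times lower in thymus (edgeR adjusted p = 1.35e-09, 3.97e-07, 9.761e-06 and 9.644e-07). The call on Mid1 was lost without thymus WT 2 or 3 or cerebrum WT 1, and with Tol in place of WT libraries, where 8 of 9 passed.

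Between the brain regions, 7 of the 9 genes were higher in cerebellum than in cerebrum (26.4% of all genes were) and 0 lower (24.6% of all). Tns3 was 1.55 times (edgeR adjusted p = 8.666e-06), Zfp276 1.43 times (edgeR adjusted p = 0.00116) and Plat 1.36 times higher in cerebellum (edgeR adjusted p = 0.003993). The differences of Fzd4, Txlna, Vmac and Atg4b were 1.42, 1.25, 1.22 and 1.11 times (edgeR adjusted p = 0.02008, 0.00118, 0.02244 and 0.01917). Mid1 and Acer2 did not pass, with log2 differences of -0.23 (SE 0.17) and 0.18 (SE 0.16). With the Tol libraries in place of WT, 2 of 9 passed between these regions. That fit held only 2 Tol cerebella, 1 of them cerebellum Tol 2, which was low in most markers of cerebellar neurons. Over the leave-one-out fits of the WT libraries between 5 and 7 passed. With DESeq2 size factors 6 passed, without Atg4b (edgeR adjusted p = 0.074), and without the filter 5 passed, without Atg4b and Vmac (edgeR adjusted p = 0.16 and 0.0744). Atg4b was also lost without any 1 of the thymus WT libraries and without cerebellum WT 3, Vmac without thymus WT 4, cerebrum WT 4 or cerebellum WT 4, and Fzd4 without cerebrum WT 1 or 4 or cerebellum WT 4. Thymus and cerebellum differed for all 9, with 4 higher in thymus (41.8% of all genes were) and 5 lower (41.7% of all), Plat by 6.12 times and Fzd4 by 5.14 times. The smallest of these differences was that of Tns3, at 1.123 times (edgeR adjusted p = 0.03225). It was lost with DESeq2, with DESeq2 size factors in edgeR and without the filter. It was also lost without any 1 of the thymus WT libraries or of cerebellum WT 2 or 3. With the Tol libraries in place of WT, 7 of 9 passed between thymus and cerebellum, and Mid1 and Tns3 did not (edgeR adjusted p = 0.0856 and 0.148).

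Per kilobase of the longest coding transcript, with libraries of all organs scaled together, the order of levels differed between organs. In WT thymus Txlna was highest at 29.5 ± 1.22 CPM per kb (SD, n = 4), followed by Mid1 at 17.4 ± 4.01 and Tns3 at 17.0 ± 0.723, whose ranges overlapped. Atg4b (11.3 ± 0.176) and Zfp276 (10.5 ± 0.549) followed, then Vmac (8.22 ± 0.624), Plat (3.64 ± 0.593), Acer2 (1.204 ± 0.145) and Fzd4 (0.855 ± 0.0785), all in CPM per kb. In WT cerebrum Plat (16.3 ± 1.91), Atg4b (15.5 ± 0.335), Mid1 (12.6 ± 2.31) and Tns3 (12.3 ± 0.674) stood at the top. The ranges of Plat and Atg4b overlapped, as did those of Mid1 and Tns3, while Atg4b lay above Mid1 without overlap. The lowest there were Vmac (3.68 ± 0.170), Fzd4 (3.10 ± 0.371) and Acer2 (3.01 ± 0.535), and each overlapped the next. In WT cerebellum the order began with Plat (22.3 ± 0.945) and Tns3 (19.1 ± 1.36), whose ranges did not overlap, then Atg4b (17.1 ± 0.251), and ended with Fzd4 (4.41 ± 1.18) and Acer2 (3.40 ± 0.665), which overlapped.

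**Figure D5:**
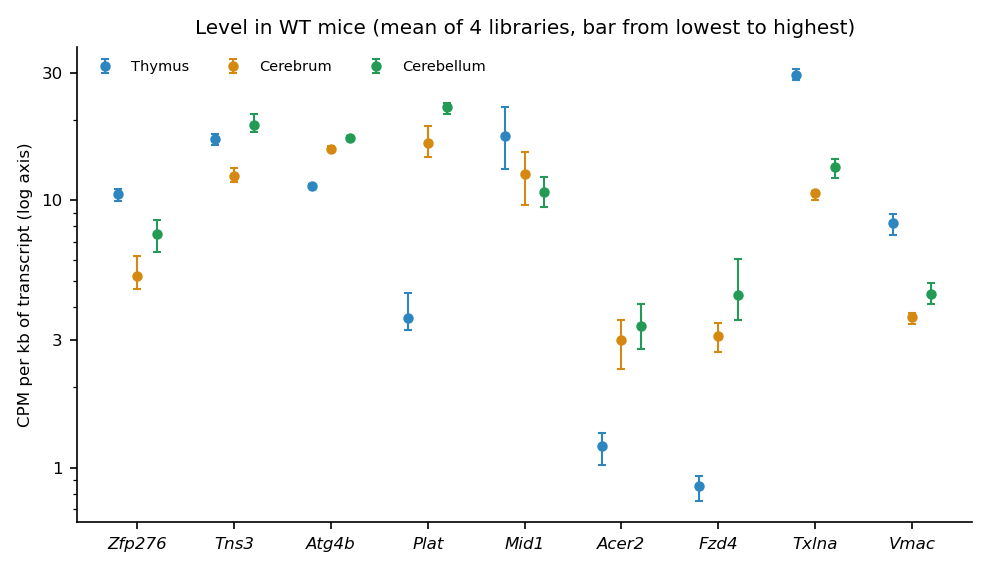
Level of the 9 genes in WT thymus, cerebrum and cerebellum in CPM per kilobase of the longest coding transcript, on a log axis, as the mean of 4 libraries with a bar from the lowest to the highest. Plat and Fzd4 are lowest in thymus by the widest distance, and Txlna, Vmac and Zfp276 are highest there. Mid1 is also highest in thymus by its mean, with thymus and cerebrum ranges that overlap.

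Beyond the step between genotypes that the selection fixed, the 9 genes varied largely apart from each other. Over the 22 libraries, with each genotype and organ centred on its own mean, the 28 pairs of lower genes had a median Pearson r of 0.02, from -0.46 (Acer2 and Txlna) to 0.78 (Zfp276 and Txlna). The 8 pairs with Vmac had a median of -0.01. With only the organs centred, which keeps the genotype step, the gene most like each member was Txlna for Zfp276 and Zfp276 for Txlna (r = 0.92), Zfp276 for Fzd4 (0.81), Ctnnd1 for Tns3 (0.89), Ralgds for Atg4b (0.88), Etv3 for Plat (0.84), Gm47283 for Mid1 (0.92, followed by Sgms1 with 0.86), Mat2a for Acer2 (0.84) and Atp6v1e1 for Vmac (0.81). These values share libraries and the genotype step and are given as a description.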

How the data were processed

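RNA of thymus, cerebrum and cerebellum was sequenced with a stranded polyA protocol in single-end reads of 65 bases. The submitters' processing notes name Salmon 0.14.1, edgeR 3.9 and GRCm38. The values deposited by the authors are expected counts, estimated by Salmon and listed by gene as whole numbers without normalization, in 1 table per organ. How transcripts were summed to genes and strand was used is not given in the sources used here. No rounding was needed, and 0 columns were left unused. Libraries were grouped by the genotype and number in the labels. The study gives more mice per genotype than the 2 Tol cerebella used here; others were not analysed here. Symbols and positions are from GENCODE vM21, which held 34465 of 34585 entries, and promoters from RefSeq.

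From the deposited counts, Tol and WT were compared organ by organ using edgeR 4.0.16 under R 4.3.3 (TMM scaling, filterByExpr, quasi-likelihood F test, Benjamini-Hochberg adjustment over all genes tested, threshold 0.05). The 12 WT libraries were compared between organs in 1 fit of the same kind. Members and gene lists were chosen with earlier results of these data known. The genes named are the 9 genes, their overlapping and nearest tested neighbours, the paralogs and the gene with the lowest p per pathway list and organ, the gene nearest to the rule on the outside, genes that met the rule without being chosen, and the gene most like each member by Pearson r of log2(CPM + 1). Genes called by other tools or settings, and others at the ends of X and Y, were named after their values were seen. Alternatives were DESeq2 1.42.0 and its size factors, other filters, robust moderation, thinning, removal of the trend with GC content and length, a replicate block and leaving out each library. The fits were tested on simulated data with 200 changed genes. The range of chi-square per degree of freedom between libraries of a group was 4.98 to 208, so each library counted as 1 replicate.

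Deviations of same-numbered Tol and WT libraries from their group means correlated with r from -0.24 to 0.12 in thymus, -0.39 to 0.49 in cerebrum and -0.16 to 0.70 in cerebellum, and those of WT libraries between organs with r from -0.02 to 0.13. Not every pair exceeded 0.1, so numbers were not taken to pair libraries. Library totals limit the precision of low genes, and a count of 3 corresponded to between 0.0863 and 0.206 CPM of the library totals, counting error only.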

Additional observations from a re-analysis of the deposited data

Results flagged for a closer look

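The genotypes were also separated without overlap in all 3 organs, but in opposite directions between organs, for 9 genes outside the set. Relative to WT, the log2 fold change in Tol in the organ that went against the other 2 was 0.24 for Rdh13, -0.63 for Lama4, 0.14 for Amz2, -0.35 for Xpnpep3, -0.40 for Zfp39 and -0.43 for Arhgap29, each in thymus. It was -0.25 for Spindoc in cerebrum, and 0.26 for Jade2 and -0.16 for Acad9 in cerebellum. The difference between organs was not tested. Among the 9 genes described above, the check for a library far from the other 3 flagged 0 of 45 groups of 4 libraries. The 2 Tol cerebella form no group of 4 and were not covered. Wide groups, such as Mid1 in Tol thymus (21.9 to 60.1 CPM), were not flagged either, so an unflagged group can still hold a high library.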

How the results depend on the processing

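Of 333 values of the members' log2 fold change under other settings, 333 kept their sign and 323 moved by less than 1 SD of the libraries. The number of members separated in all 3 organs was 5 on CPM of the library totals, 4 after thinning and 4 with the trend with GC content and length removed. It was from 7 to 9 with 1 library left out and the scaling recomputed. Over all genes, the number lower in every organ was 6 on library totals, 6 after thinning and 6 with the trend removed, in place of 9. It was between 8 and 24 with 1 library left out (24 without cerebellum Tol 1). The number higher was 2 on library totals, 2 with the trend removed, and between 0 and 7 with 1 library left out (7 without cerebellum Tol 2). Pathway genes called in thymus numbered 11 with DESeq2, 1 without a filter, 1 with at least 10 counts required, and 0 to 22 with 1 library left out (22 without thymus Tol 1). Neighbouring genes called in thymus numbered 4 with DESeq2 and 0 to 5 with 1 library left out (5 without thymus Tol 1). DESeq2 called 1 pathway gene in cerebrum and 1 neighbouring gene in cerebellum. With Tol in place of WT libraries, 8 members differed between thymus and cerebrum and 7 between thymus and cerebellum. Between cerebellum and cerebrum 2 differed in that fit, which held only 2 Tol cerebella. The cause of these shifts was not tested. Without a filter, the median log2 difference of all genes between WT thymus and cerebrum was 0.19 in place of 0.06. With the library number as a replicate block, 0 pathway genes and 0 neighbouring genes were called in each organ, 9, 7 and 9 members differed between WT organs, and 5 in place of 16 of all genes were called in thymus; the other counts of genes past the adjusted threshold given here did not change. At an unadjusted p under 0.05 the block left 3317, 1539 and 195 of all genes in thymus, cerebrum and cerebellum, 24, 17 and 3 pathway genes, and 8, 3 and 2 neighbouring genes. Libraries correlated best with their own number in 1 of 8 cases between Tol and WT thymus, 3 of 8 in cerebrum and 2 of 8 between Tol thymus and cerebrum. Between WT organs they did so in 5 of 8 cases for thymus and cerebrum, 6 of 8 for thymus and cerebellum and 4 of 8 for cerebrum and cerebellum, a hint from the data and not from the design. The cerebellum comparison rests on 2 Tol libraries, 1 of them low in 5 of 6 cerebellar markers.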
